A study of Mus musculus with 24 samples.

Results

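The insulin-like growth factor (IGF) axis was followed through 10 genes: the ligands Igf1 and Igf2, the receptors Igf1r and Igf2r, the binding proteins Igfbp2, Igfbp3, Igfbp4 and Igfbp5, and the receptor substrates Irs1 and Irs2. They were chosen by name, with earlier results of these data known. All 10 were present among the 15736 genes of a count table from mouse otocyst epithelium. That epithelium is the wall of the vesicle that forms the inner ear. IGF1 and IGF2 are secreted peptides that activate the tyrosine kinase IGF1R, which signals through the docking proteins IRS1 and IRS2 to phosphoinositide 3-kinase and AKT. IGF2R, the mannose 6-phosphate receptor, takes IGF2 to the lysosome, and the secreted binding proteins hold the ligands outside the cell and set how much of them reaches the receptor. In the mouse inner ear, loss of IGF1 is known to impair growth and maturation of the cochlea and to cause hearing loss.

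Control pools (con) came from Rosa26rtTA/+ embryos, which carry the doxycycline-dependent activator rtTA alone. Experimental pools (R2b) came from Rosa26rtTA/+;Tg(tetO-s(dn)Fgfr2b)/+ littermates, which carry the same activator and a doxycycline-responsive transgene for a secreted, dominant-negative FGFR2b. Doxycycline thus reached both genotypes, by injection of the pregnant female at 1.5 mg/kg and then in chow at 200 mg/kg. Rosa26 is active in most embryonic tissues, so the activator is not limited to the ear. Exposure ran for 12 hours from E9.75 (E9.75+12h), for 24 hours from E9.25 (E9.25+24h), both ending at E10.25, or for 24 hours from E10.25 (E10.25+24h), ending at E11.25. Each litter gave 1 con and 1 R2b pool of dissected epithelia, and 3, 4 and 4 litters were used for these exposures, 22 libraries in all. The comparison of R2b with con within an exposure asks which transcripts depend on signalling through the ligands of FGFR2b.

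Libraries held 18.7 to 28.2 M counts. The transgene, whose protein carries an immunoglobulin constant region, was read from Ighg1: con libraries had 1 to 36 counts of it and R2b libraries 19414 to 76096 in the exposures ending at E10.25. Fgfr2, which shares sequence with the transgene, stood at 127 to 165 CPM in those con libraries and 747 to 1927 CPM in R2b. At E10.25+24h the library labelled con of litter 1 had 15754 counts of Ighg1 and the library labelled R2b of litter 1 had 1504, and the library labelled con of litter 3 had 5106. All libraries stayed under their labels, and values of that exposure are given with and without litter 1. The 14 FGF readout genes (Etv, Dusp, Spry and Spred genes and the like) summed to 874 to 957 CPM (counts per M counts of the library) in con and 373 to 532 CPM in R2b for E9.75+12h, and to 854 to 943 CPM and 454 to 561 CPM at E9.25+24h, with no overlap. At E10.25+24h they summed to 519 to 978 CPM in libraries labelled con and 570 to 916 CPM in libraries labelled R2b, which overlapped. Without litter 1 the sums of that exposure were 942 to 978 CPM in con and 570 to 744 CPM in R2b, with no overlap. In the fit without litter 1, 13 of the 14 genes had an unadjusted edgeR p under 0.05, against 2430 of 15195 genes tested. The 10 otic epithelium markers, Pax2, Oc90 and Epcam among them, were detected in every library. In bulk pools such as these, fewer cells of a type and less RNA per cell cannot be told apart. Library numbers in the sample titles start differently in each exposure, and differences in level between exposures cannot be told apart from what those numbers mark.

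The promoters of the 3 genes that were called in both exposures ending at E10.25 are shown because FGF signalling is known to act through ETS transcription factors, whose core motif is GGAA. Each is the 250 bases before the annotated start (RefSeq, GRCm38.p6), on the gene's own strand, 5′ to 3′. Capitals mark the ETS core, GGAA or its complement TTCC.

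Igfbp5, chr1:72874866-72875115, minus strand: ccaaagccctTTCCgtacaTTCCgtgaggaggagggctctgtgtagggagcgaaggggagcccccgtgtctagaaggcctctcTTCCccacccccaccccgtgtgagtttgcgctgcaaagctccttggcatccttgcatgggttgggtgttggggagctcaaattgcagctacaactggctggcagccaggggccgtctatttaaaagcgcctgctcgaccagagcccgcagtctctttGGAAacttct
Igfbp3, chr11:7213924-7214173, minus strand: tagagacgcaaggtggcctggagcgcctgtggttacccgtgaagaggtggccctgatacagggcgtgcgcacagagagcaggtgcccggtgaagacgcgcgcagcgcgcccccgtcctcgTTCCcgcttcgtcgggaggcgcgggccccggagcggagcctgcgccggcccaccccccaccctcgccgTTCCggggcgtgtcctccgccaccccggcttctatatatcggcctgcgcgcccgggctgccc
Irs1, chr1:82291440-82291689, minus strand: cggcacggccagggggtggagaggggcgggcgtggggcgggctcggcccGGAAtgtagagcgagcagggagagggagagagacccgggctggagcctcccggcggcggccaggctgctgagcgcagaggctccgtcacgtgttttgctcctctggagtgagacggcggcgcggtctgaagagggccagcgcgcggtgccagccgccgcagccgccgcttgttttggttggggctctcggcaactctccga

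The Igfbp5 window held the core 4 times, starting at -240, -231, -167 and -10 relative to the start, the Igfbp3 window 2 times (-130 and -62) and the Irs1 window once (-201). The core was in 93.4% of 32851 mouse promoter windows of this length, with a median of 3 matches a window, so its presence does not set these genes apart. Neither the longer ETS motif CCGGAAGT (2.88% of windows) nor the forkhead motif GTAAACA (3.17% of windows) occurred in a window of any of the 10 genes, on either strand. The AP-1 motif TGANTCA (6.75% of windows) occurred in a window of Igf1 and of Igfbp2, and the TATA motif TATAAA (12.4% of windows) in that of Igfbp4. The AGGAAG motif of the PEA3 group of ETS factors, which overlaps the core, was in 29.5% of windows and in none of the 3 printed. It occurred in a window of Igf1, Igf2, Igf2r and Igfbp2. A match is a description of the letters and not a bound site.

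The members differed widely in level. Per kilobase of exon, con libraries at E9.75+12h had 256 ± 9.09 CPM/kb of Igfbp5, 150 ± 37.5 of Igf2, 66.2 ± 5.77 of Igfbp2 and 62.9 ± 12.8 of Igfbp4 (SD, n = 3). Igf2r followed at 18.9 ± 2.49, Igfbp3 at 16.9 ± 0.697, Irs2 at 11.6 ± 0.915, Irs1 at 10.30 ± 1.63, Igf1r at 6.38 ± 0.414 and Igf1 at 1.91 ± 1.28 CPM/kb. Igfbp5 ranked 79 and Igf2 158 among 15522 genes, whereas Igf1 ranked 10759. Igfbp2 and Igfbp4, Igf2r and Igfbp3, and Irs2 and Irs1 were neighbours whose levels lay within 1 SD of each other. The con libraries of E9.25+24h kept this order. In R2b libraries of both exposures Igfbp3 was 8th of the 10, below Irs1 and Irs2. In con libraries at E10.25+24h Igfbp2 stood above Igf2, at 135 ± 22.8 against 105 ± 31.8 CPM/kb (SD, n = 4), a difference about the size of those spreads.

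At the exposures that ended at E10.25, Igfbp5 and Irs1 transcripts were higher and Igfbp3 transcripts lower in R2b, and Igfbp2 was also higher at E9.25+24h. A call here means an edgeR false discovery rate (FDR), adjusted over all genes tested, of under 0.05, and log2 ratios are those of R2b over con. At E9.75+12h, 3 of the 10 members were called, against 20.0% of 14882 genes tested. At E9.25+24h, 4 of 10 were called, against 15.6% of 14979 genes. With only 10 genes and no test of the set, these counts cannot show whether the axis differs from the background. The median log2 fold change of the members was 0.35 (E9.75+12h) and 0.24 (E9.25+24h), beside 0.01 and -0.01 over all genes.

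**Figure D1:**
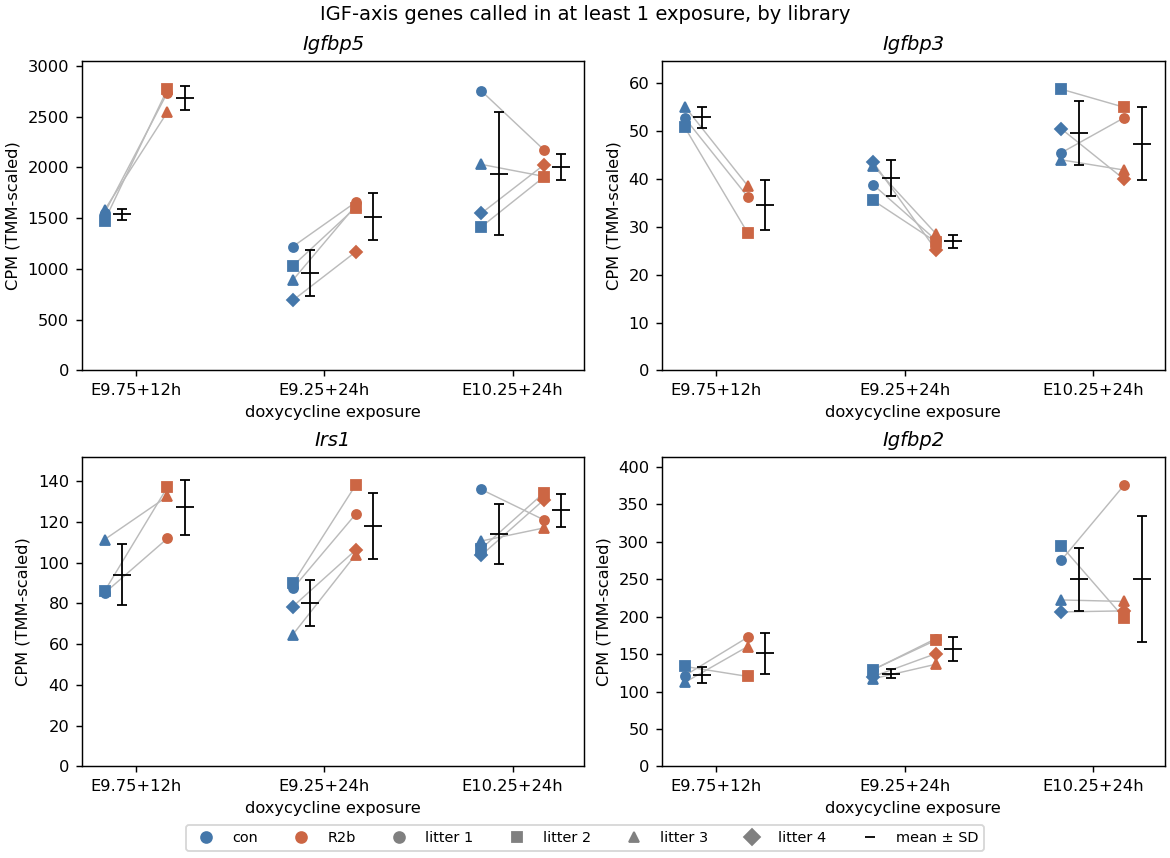
CPM (vertical axis, from 0) of Igfbp5, Igfbp3, Irs1 and Igfbp2 in con (blue) and R2b (orange) pools at each doxycycline exposure (horizontal axis); marker shapes are litters, grey lines join the pools of a litter, and black bars are the mean ± SD of 3 or 4 pools. At E9.75+12h the R2b pools of Igfbp5 lay between 2544 and 2770 CPM, all above con. At E10.25+24h con and R2b overlapped for all 4 genes, for Irs1 through litter 1 alone.

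Igfbp5 encodes a binding protein that also attaches to extracellular matrix, and per length it was the most abundant member. At E9.75+12h it was at 1551, 1476 and 1582 CPM in con of litters 1 to 3 and at 2736, 2770 and 2544 CPM in R2b. Every R2b pool was above every con pool. Mean levels of 1536 ± 54.6 in con and 2683 ± 121 CPM in R2b (SD, n = 3 each) gave a fitted log2 ratio of 0.83 (SE 0.10, FDR 5.71e-04 by edgeR). In the E9.25+24h pools it stood at 1220, 1031, 890 and 691 CPM in con of litters 1 to 4 and at 1657, 1604, 1624 and 1167 CPM in R2b. Each R2b pool was above the con pool of its litter, although R2b of litter 4 was below con of litter 1. Mean levels of 958 ± 224 in con and 1513 ± 231 CPM in R2b (SD, n = 4 each) gave a fitted log2 ratio of 0.66 (SE 0.18, FDR 0.0363 by edgeR). That call was lost without litter 1 (FDR 0.0864), litter 2 (FDR 0.150) or litter 3 (FDR 0.148), and it was kept with the litter as a block (0.68, SE 0.06, FDR 2.06e-05).

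Igfbp3 encodes the main carrier of IGFs in the circulation, where it joins an acid-labile subunit. At E9.75+12h it was at 52.6, 50.7 and 55.0 CPM in con and at 36.3, 28.7 and 38.5 CPM in R2b. Every R2b pool was below every con pool. Mean levels of 52.8 ± 2.18 in con and 34.5 ± 5.14 CPM in R2b (SD, n = 3 each) gave a fitted log2 ratio of -0.59 (SE 0.13, FDR 0.00847 by edgeR). Without litter 1 this call was lost (FDR 0.102). At E9.25+24h levels were 38.8, 35.5, 42.7 and 43.4 CPM in con and 27.2, 26.8, 28.5 and 25.1 CPM in R2b, again with no overlap. Mean levels of 40.1 ± 3.71 in con and 26.9 ± 1.40 CPM in R2b (SD, n = 4 each) gave a fitted log2 ratio of -0.57 (SE 0.08, FDR 0.00347 by edgeR). It was the member with the lowest FDR of that exposure, and the call held under all 23 alternatives computed, with a highest FDR of 0.0465.

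Igfbp2 encodes a binding protein abundant in fetal tissues. At E9.75+12h it was at 121, 133 and 112 CPM in con and at 172, 120 and 160 CPM in R2b, where litter 2 ran opposite to the others (log2 fold change 0.33, SE 0.13, edgeR FDR 0.105). After 24 hours from E9.25 it was at 129, 129, 117 and 120 CPM in con and at 171, 169, 136 and 151 CPM in R2b. Every R2b pool was above every con pool there. Mean levels of 124 ± 6.29 in con and 157 ± 16.2 CPM in R2b (SD, n = 4 each) gave a fitted log2 ratio of 0.34 (SE 0.08, FDR 0.0217 by edgeR). The call was lost without litter 1 (FDR 0.113) and without litter 2 (FDR 0.102), and also with all libraries in one fit (FDR 0.186). Igfbp2 (ENSMUSG00000039323, chr1:72824503-72852474, plus strand) and Igfbp5 (ENSMUSG00000026185, chr1:72857932-72874884, minus strand) are protein-coding neighbours that point towards each other, with 5457 bases between them. Igfbp3 (ENSMUSG00000020427) lies at chr11:7206086-7213923 on the minus strand (GENCODE M21, GRCm38, as for the positions that follow).

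Igfbp4 encodes a binding protein that is cleaved by the protease PAPP-A (ENSMUSG00000017493, chr11:99041244-99054392, plus strand). At E9.75+12h it was at 245, 246 and 343 CPM in con and at 235, 270 and 287 CPM in R2b. At E9.25+24h the pools had 243, 197, 201 and 442 CPM in con and 244, 199, 193 and 392 CPM in R2b. Litter 4 was far above the other litters in both genotypes, and within each litter the pools were close. The log2 fold changes were -0.05 (SE 0.14, edgeR FDR 0.834) and -0.07 (SE 0.30, edgeR FDR 0.903).

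The opposite directions of Igfbp5 and Igfbp3 moved their ratio. In con at E9.75+12h there were 29.5, 29.1 and 28.7 counts of Igfbp5 for each count of Igfbp3, and in R2b 75.5, 96.4 and 66.0. At E9.25+24h con had 31.5, 29.1, 20.8 and 15.9 and R2b had 60.9, 59.7, 56.9 and 46.4. At E10.25+24h the libraries labelled con had 60.6, 24.1, 46.2 and 30.7 and those labelled R2b 41.2, 34.7, 45.7 and 50.8. The con and R2b ranges of the ratio were apart in the exposures ending at E10.25 and overlapped at E10.25+24h, where the highest ratio belonged to the library labelled con of litter 1. The ratio was formed from genes already seen to differ, so it is a description with no test.

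**Figure D2:**
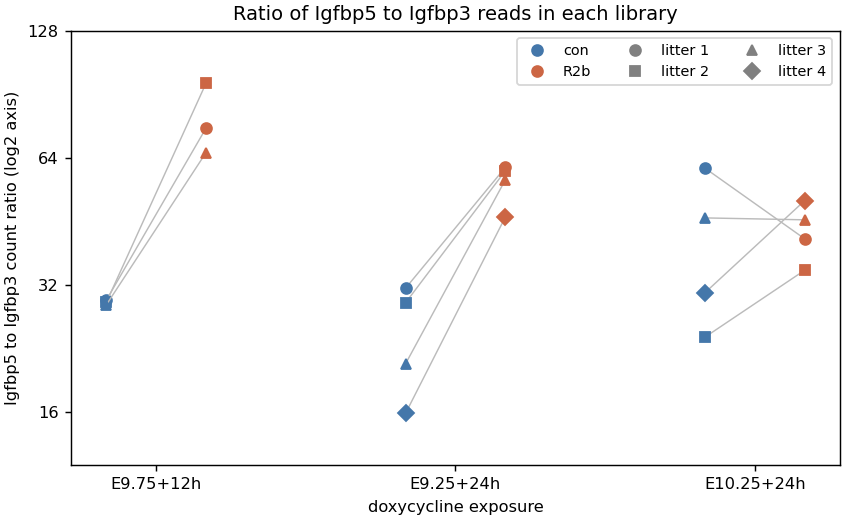
Counts of Igfbp5 per count of Igfbp3 in each pool (vertical axis, log2), by doxycycline exposure and genotype (horizontal axis; con blue, R2b orange), with litters by marker shape and grey lines joining the pools of a litter. The R2b pools lay between 46.4 and 96.4 in the exposures ending at E10.25, where con lay between 15.9 and 31.5.

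Irs1 encodes a docking protein phosphorylated by the IGF1 and insulin receptors (ENSMUSG00000055980, chr1:82233101-82291416, minus strand). At E9.75+12h it was at 85.1, 86.1 and 111 CPM in con and at 112, 137 and 133 CPM in R2b. No R2b pool was below a con pool, although R2b of litter 1 was close to con of litter 3. Mean levels of 94.2 ± 14.9 in con and 127 ± 13.4 CPM in R2b (SD, n = 3 each) gave a fitted log2 ratio of 0.46 (SE 0.12, FDR 0.0260 by edgeR), and the call was lost without litter 1 (FDR 0.136) or litter 2 (FDR 0.103). With exposure from E9.25 it was at 87.4, 89.9, 64.8 and 78.5 CPM in con and at 124, 138, 104 and 106 CPM in R2b, with no overlap. Mean levels of 80.1 ± 11.4 in con and 118 ± 16.1 CPM in R2b (SD, n = 4 each) gave a fitted log2 ratio of 0.56 (SE 0.12, FDR 0.0192 by edgeR), lost without litter 1 (FDR 0.101) or litter 2 (FDR 0.0733).

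Irs2, a close relative with the same docking role (ENSMUSG00000038894, chr8:10984681-11008458, minus strand), was at 69.7, 69.9 and 79.8 CPM in con and at 95.0, 72.8 and 111 CPM in R2b for E9.75+12h. It was above con in 3 of 3 litters but was not called (log2 fold change 0.37, SE 0.14, edgeR FDR 0.0894). At E9.25+24h con was at 67.6 to 76.1 CPM and R2b at 72.2 to 80.1 CPM (log2 fold change 0.07, SE 0.05, edgeR FDR 0.358). Irs1 shares 2822 exon bases with Gm9747 and Irs2 shares 162 with 9530052E02Rik, both on the opposite strand and neither in the count table. The libraries were stranded per the labels, but use of strand in counting was not given in the sources used here.

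Igf1 (ENSMUSG00000020053, chr10:87858265-87937042, plus strand), the ligand with the lowest level of all members, varied more between litters than between genotypes. At E9.75+12h it was at 15.4, 8.42 and 33.0 CPM in con and at 15.3, 47.7 and 20.2 CPM in R2b, and the log2 ratio was 0.58 (SE 0.46, FDR 0.400 by edgeR), whose sign turned without litter 2 (-0.43). Without litter 3 it was 1.41 and would have been called (FDR 0.0303). At E9.25+24h values were 22.3, 8.3, 2.34 and 80.0 CPM in con and 31.5, 16.6, 20.4 and 91.5 CPM in R2b. It was higher in R2b of 4 of 4 litters, within a spread between litters larger than that difference (log2 fold change 0.51, SE 0.91, edgeR FDR 0.744).

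Igf2 (ENSMUSG00000048583, chr7:142650766-142666816, minus strand), the second most abundant member in those exposures, was at 763, 712 and 1106 CPM in con and at 1054, 1365 and 1121 CPM in R2b for E9.75+12h. It was higher in R2b of 3 of 3 litters and missed the threshold (log2 fold change 0.48, SE 0.16, edgeR FDR 0.0570). In the E9.25+24h pools it stood at 512, 453, 332 and 827 CPM in con and at 607, 520, 563 and 868 CPM in R2b (log2 fold change 0.28, SE 0.26, edgeR FDR 0.509). Igf2 shares 98 exon bases with the opposite-strand Igf2os and 3596 with Gm49394 on its own strand. Igf2os was in the count table and Gm49394 was not. How reads in the shared bases were counted is not given in the sources used here.

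Of the receptors, Igf1r, the signalling receptor (ENSMUSG00000005533, chr7:67952827-68233668, plus strand), was at 99.2, 112 and 110 CPM in con and at 105, 96.6 and 102 CPM in R2b for E9.75+12h (log2 fold change -0.06, SE 0.09, edgeR FDR 0.682). At E9.25+24h its level was 121, 111, 97.9 and 123 CPM in con and 97.1, 89.3, 83.6 and 103 CPM in R2b. It was lower in R2b of 4 of 4 litters without being called (log2 fold change -0.27, SE 0.09, edgeR FDR 0.0608). Igf2r, the clearance receptor (ENSMUSG00000023830, chr17:12682406-12769664, minus strand), was at 154, 173 and 201 CPM in con and at 229, 200 and 198 CPM in R2b for E9.75+12h (log2 fold change 0.27, SE 0.11, edgeR FDR 0.104). After 24 hours from E9.25 it was at 224, 222, 201 and 248 CPM in con and at 266, 236, 247 and 272 CPM in R2b, higher in 4 of 4 litters (log2 fold change 0.20, SE 0.07, edgeR FDR 0.0789).

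**Figure D3:**
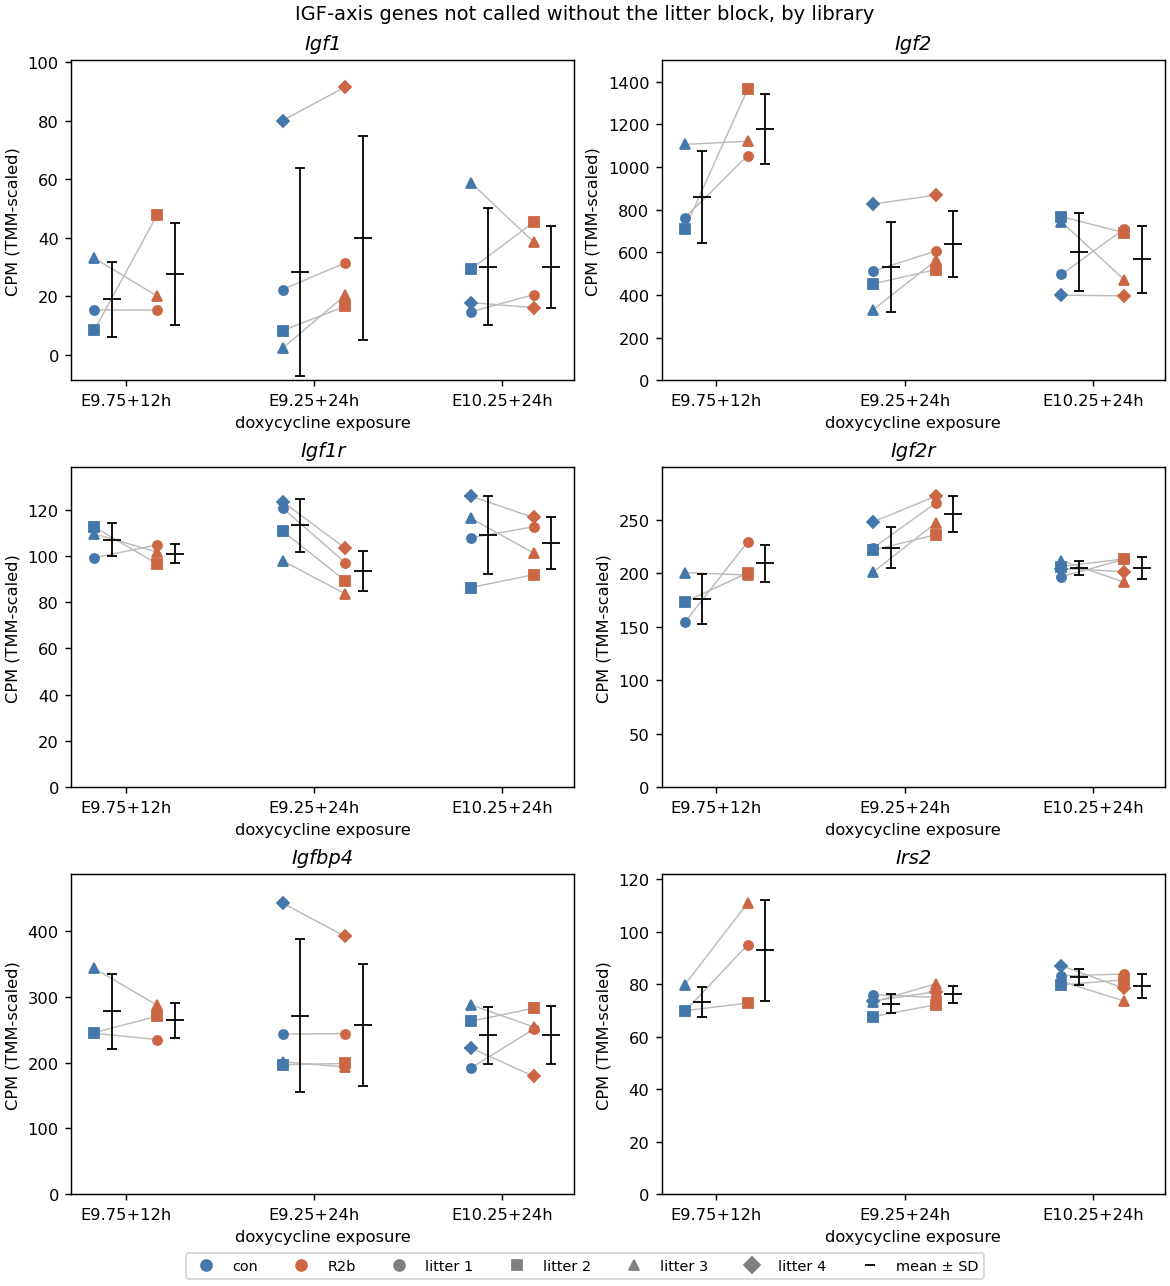
CPM (vertical axis) of the 6 members not called in any exposure by the fit without the litter block, in con (blue) and R2b (orange) pools at each doxycycline exposure (horizontal axis), with litters by marker shape, grey lines joining the pools of a litter and black bars for the mean ± SD of 3 or 4 pools. At E9.25+24h the pools of litter 4 were the highest of Igf1, Igf2 and Igfbp4 in both genotypes, and Igf1r was lower in R2b than in con of 4 of 4 litters.

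The labels pair the pools by litter, and with the litter as a block the receptors and ligands also passed the threshold at E9.25+24h. In that fit 8 of the 10 members were called, against 40.6% of all genes. To the 4 above it added Igf1r (-0.27, SE 0.03, edgeR FDR 1.90e-04), Igf2r (0.20, SE 0.04, FDR 0.00248), Igf2 (0.32, SE 0.09, FDR 0.0144) and Igf1 (0.83, SE 0.29, FDR 0.0407). The blocked call of Igf1 was lost without litter 1 (edgeR FDR 0.0675) or litter 2 (FDR 0.122). In litter 3 Igf1 was 3.07 higher in R2b on the log2 CPM scale, against 0.19 to 0.98 in the other litters. The con pool of litter 3 held 44 counts of Igf1 (2.34 CPM). Igfbp4 (FDR 0.321) and Irs2 (FDR 0.161) remained uncalled. At E9.75+12h the block left 3 members called, against 11.9% of all genes. Without litter 1 and without the block, 1 member was called at E9.75+12h (Igfbp5) against 2.92% of all genes, and 1 at E9.25+24h (Igfbp3) against 2.15%. Without litter 2, 1 was called at E9.25+24h, again Igfbp3, against 3.06%.

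In R2b at E9.75+12h, ranges of the pools did not overlap with con for Igfbp5, Irs1 and Igfbp3, 3 of the 10 members, against 39.1% of all genes. At E9.25+24h they did not overlap for Igfbp2, Irs1 and Igfbp3, again 3 of 10, against 22.3% of all genes. Non-overlap at this share is common to the table and says little about the axis.

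At E10.25+24h no member was called and no gene of 15203 tested (0% of genes, 0 members and 175 genes at an unadjusted p under 0.05, and 0 of either in DESeq2). The library labelled con of litter 1, with its high Ighg1, stood at 2754 CPM of Igfbp5, above all others, where con of litters 2 to 4 was at 1413, 2029 and 1546 CPM and the libraries labelled R2b were at 2173, 1905, 1911 and 2024 CPM. The log2 fold change was 0.06 (SE 0.19). Igfbp3 was at 45.4, 58.7, 43.9 and 50.4 CPM in con and at 52.7, 54.9, 41.8 and 39.9 CPM in R2b (log2 fold change -0.06, SE 0.13). Irs1 was at 136, 107, 111 and 104 CPM in con and at 121, 134, 117 and 131 CPM in R2b (log2 fold change 0.15, SE 0.09), the largest fitted value of the 10. Litter 1 ran opposite to litters 2 and 4 for Igfbp5, Igfbp3 and Irs1. Igfbp2 was at 276, 295, 222 and 206 CPM in con and at 376, 198, 220 and 208 CPM in R2b (log2 fold change 0.01, SE 0.21). Ranges of the pools overlapped for all 10 members, against 0.993% of genes for which they did not. For Irs1 the overlap came from litter 1 alone. In litters 2 to 4 its con pools were at 104 to 111 CPM and its R2b pools at 117 to 134 CPM. The share of all genes with ranges apart in litters 2 to 4 is not given here.

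Without litter 1, Irs1 was at 0.27 (SE 0.07, edgeR FDR 0.142), Igfbp5 at 0.25 (SE 0.13, FDR 0.413) and Igfbp3 at -0.15 (SE 0.15, FDR 0.684), with 0% of genes called. Irs1 was the 1 member of 10 with an unadjusted edgeR p under 0.05 in that fit, against 2430 of 15195 genes tested. Igfbp2 was then at -0.19 (SE 0.13, edgeR FDR 0.522). Fitted values of 2 members lay above 0 and those of 8 below, with a median of -0.07. With litter 1 left out and the litter as a block, 4.04% of 15195 genes were called and 0 of the 10 members. An unadjusted edgeR p under 0.05 was found for 2 of the members, against 23.2% of all genes. Irs1 was then at 0.27 (SE 0.06, edgeR FDR 0.0712), Igfbp5 at 0.26 (SE 0.10, FDR 0.188) and Igfbp3 at -0.15 (SE 0.07, FDR 0.252). Both fits without litter 1 kept the library labelled con of litter 3. It had 5106 counts of Ighg1, against 28 and 16 in con of litters 2 and 4.

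**Figure D4:**
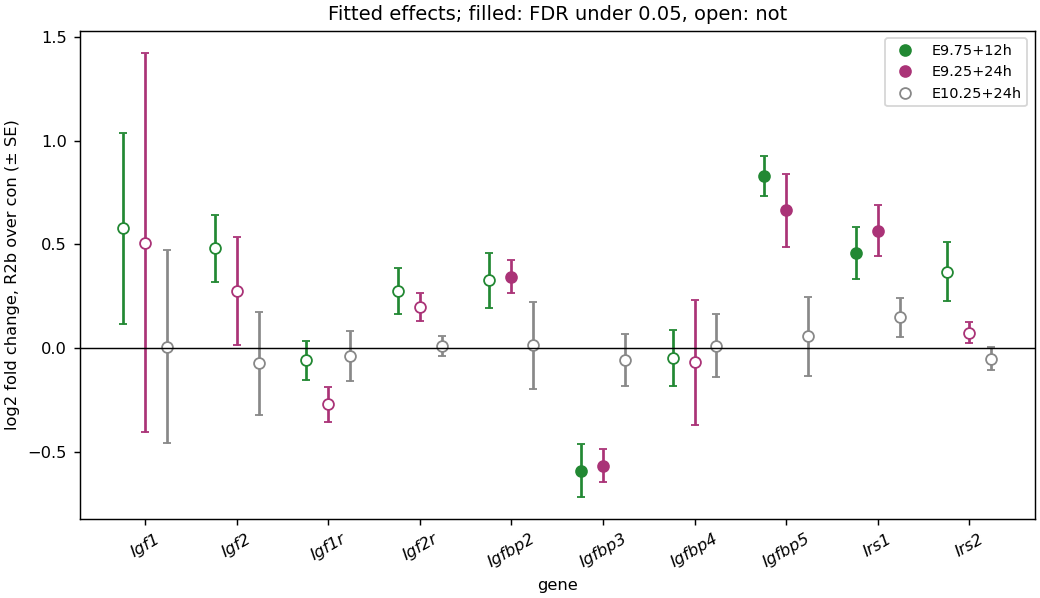
Fitted log2 fold changes of R2b over con (vertical axis, ± SE) of the 10 members (horizontal axis) at E9.75+12h (green), E9.25+24h (purple) and E10.25+24h (grey); filled points have an edgeR FDR under 0.05 and open points do not. Igfbp5 (0.83 and 0.66), Irs1 (0.46 and 0.56) and Igfbp3 (-0.59 and -0.57) are the members filled in both exposures ending at E10.25, and all grey points are open.

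Differences of an effect between exposures were tested with contrasts of the 6 group means. None of the 10 members and none of 15688 genes passed an edgeR FDR of 0.05 (0% called) for E9.25+24h minus E9.75+12h, with 0 members and 1908 genes at an unadjusted p under 0.05 and 0 members and 99 genes called by DESeq2. The difference was -0.15 (SE 0.26, FDR 0.865) for Igfbp5, 0.04 (SE 0.17, FDR 0.947) for Igfbp3 and 0.13 (SE 0.18, FDR 0.819) for Irs1, all within their errors. For Irs2 it was -0.28 (SE 0.14, FDR 0.419), and without litter 2 of E9.75+12h it was -0.39 (SE 0.11, FDR 0.035). For E10.25+24h minus E9.25+24h none passed either (0% called), and DESeq2 called 0 members and 73 genes. Igfbp5 (-0.61, SE 0.24, FDR 0.493), Igfbp3 (0.51, SE 0.16, FDR 0.330) and Irs1 (-0.42, SE 0.17, FDR 0.489) were the 3 members with an unadjusted p under 0.05, as were 1344 genes. These contrasts include litter 1 of E10.25+24h.

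Of a list of 42 further genes of the pathway, 36 were in the table and Igfbp1, Igfbp6, Igfbp7, Insrr, Ins1 and Ins2 were not analysed here. At E9.75+12h, 9 of 36 were called, against 20.0% of all genes, of which 5 were higher and 4 lower, and the median log2 fold change was 0.03 beside 0.01 over all genes. Igfbpl1, an IGFBP-like gene, had 7.94 ± 1.38 CPM in con against 17.3 ± 2.03 CPM in R2b (SD, n = 3 each; log2 fold change 1.15, SE 0.17, edgeR FDR 0.00169). Pappa2, whose product is a protease that cleaves IGFBP3 and IGFBP5, was at 2.41 ± 0.563 and 5.37 ± 0.686 CPM (1.18, SE 0.25, edgeR FDR 0.00796). Stc1, whose product belongs to the stanniocalcins that inhibit such proteases, was at 15.8 ± 2.13 and 9.21 ± 1.57 CPM (-0.75, SE 0.18, edgeR FDR 0.0140). The docking protein gene Gab1 was higher (0.46, FDR 0.00518), as was Grb14, an adaptor that inhibits the insulin receptor (0.61, FDR 0.0256). The docking protein gene Irs4 was lower (-0.60, FDR 0.0217). All 6 had the same sign in 3 of 3 litters. With the litter as a block 3 of the list were called, namely Igfbpl1, Gab1 and Pappa2, against 11.9% of all genes. Without litter 1 the unblocked count was 0, against 2.92% of all genes. In that fit 10 had an unadjusted edgeR p under 0.05, against 19.6% of all genes.

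In the E9.25+24h exposure 12 of 35 pathway genes were called, against 15.6% of all genes, of which 5 were higher and 7 lower, and the median was -0.03 beside -0.01 over all genes. Grb14 had 13.6 ± 2.01 CPM in con against 24.2 ± 2.21 CPM in R2b (SD, n = 4 each; log2 fold change 0.83, SE 0.12, edgeR FDR 0.00411). Irs4 was at 16.4 ± 6.61 and 4.02 ± 1.12 CPM (-2.03, SE 0.33, edgeR FDR 0.00659), a larger fall than that of any member. Irs1 and Irs4 thus differed in opposite directions in both exposures. Gab1 was higher (0.35, FDR 0.0108), and so were Pik3r1 (0.41, FDR 0.00533) and Pik3r3 (0.39, FDR 0.0119), which encode regulatory subunits of phosphoinositide 3-kinase. Rptor, a subunit of the mTORC1 kinase complex, was lower (-0.21, FDR 0.0139). All 6 had the same sign in 4 of 4 litters. With the litter as a block 19 were called, 8 higher and 11 lower, against 40.6% of all genes. Without litter 1 the unblocked count was 1, against 2.15%. At E10.25+24h 0 of 35 were called by edgeR, with 0 at an unadjusted p under 0.05. Without litter 1 the count was 0, with 9 of 35 at an unadjusted p under 0.05, against 2430 of 15195 genes tested. With litter 1 left out and the litter as a block, 4 of 35 were called, against 4.04% of all genes. These were Igfbpl1 (0.94, edgeR FDR 0.0200), Foxo1 (0.45, FDR 0.0254), a transcription factor gene of the pathway, and Gab1 (0.22, FDR 0.0474), all higher, and the adaptor gene Grb10 (-0.32, FDR 0.0417), lower. Foxo1 and Grb10 were named after their values were seen.

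Markers of other cells varied between pools. The 12 mesenchyme markers, none at 0 in any library, summed to 133 to 406 CPM in con and 262 to 443 CPM in R2b for E9.75+12h, to 92.9 to 1331 and 105 to 1234 CPM at E9.25+24h, and to 456 to 995 and 546 to 848 CPM at E10.25+24h. Lum (log2 fold change 1.15, edgeR FDR 0.00423) and Dcn (1.03, FDR 0.00851) were called higher in R2b at E9.75+12h, 2 of the 12, against 20.0% of all genes. At E9.25+24h 0 of 12 were called, against 15.6% of all genes. None had an unadjusted edgeR p under 0.05 there, against 32.2%. With the block 3 were called, 2 higher and 1 lower, against 40.6% of all genes. Litter 4 of E9.25+24h held 1331 and 1234 CPM and litter 3 held 92.9 and 105 CPM.

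Deviations of each library from its group mean were set against those of the mesenchyme sum, over 22 libraries that share their litters and normalization. Pearson's r was 0.90 for Igf1 (Spearman 0.87), 0.85 for Igfbp4 (0.77) and 0.73 for Igf2 (0.71). It was 0.59 for Igf2r, 0.45 for Igf1r, 0.29 for Irs1, -0.05 for Irs2, -0.10 for Igfbp2, -0.15 for Igfbp3 and -0.27 for Igfbp5. Without litters 3 and 4 of E9.25+24h, r was 0.86 for Igf1, 0.65 for Igfbp4, 0.55 for Igf2 and -0.01 for Igf1r over 18 libraries. For the called members it was then 0.32 for Irs1, 0.28 for Igfbp5, -0.16 for Igfbp3 and -0.39 for Igfbp2, so that the sign for Igfbp5 turned. The ligands and Igfbp4 had the highest r over both sets of libraries. Litter 3 of E9.25+24h had the lowest sums, 92.9 CPM in con and 105 CPM in R2b. There Igf1 was 3.07 and Igfbp5 0.87 higher in R2b on the log2 CPM scale. The con pool of that litter held 44 counts of Igf1, the lowest of any library. The part of mesenchyme in the values of the members was not tested.

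**Figure D5:**
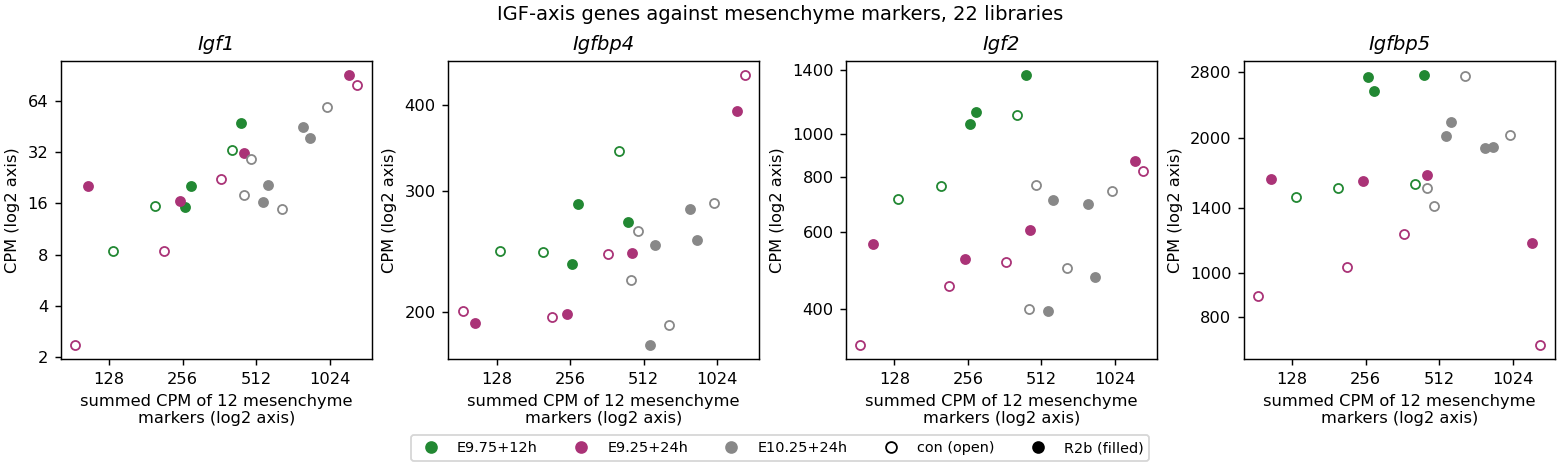
CPM of Igf1, Igfbp4, Igf2 and Igfbp5 (vertical axes, log2) against the summed CPM of 12 mesenchyme markers (horizontal axes, log2) in 22 libraries, coloured by exposure, open for con and filled for R2b. Igf1 ran with the marker sum (r of within-group deviations 0.90), while r for Igfbp5 was -0.27 over all libraries and 0.28 without litters 3 and 4 of E9.25+24h.

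Otic epithelium markers summed to 3866 to 4134 CPM in con and 4280 to 5103 CPM in R2b for E9.75+12h. There 5 of 10 were called, 4 higher and 1 lower, against 20.0% of all genes. At E9.25+24h the markers summed to 2235 to 3555 CPM in con and 3179 to 5009 CPM in R2b. In that exposure 3 of 10 were called, 2 higher and 1 lower, against 15.6% of all genes. Of the hindbrain neural tube list 5 of 12 genes were in the table, and their sums were 8.25 to 21.2 CPM in con and 18.8 to 24.7 CPM in R2b for E9.75+12h and 6.01 to 41.5 and 17.8 to 48.3 CPM at E9.25+24h. The hindbrain sum was higher in R2b of 3 of 3 and of 4 of 4 litters. Of the hindbrain genes 1 of 5 was called higher for E9.75+12h (median log2 fold change 0.90), against 20.0% of all genes. For E9.25+24h 0 of 4 tested were called (median 0.72), against 15.6%, and the block called 1, against 40.6%.

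The 12 endothelial markers summed to 18.2 to 63.1 CPM in con and 20.8 to 43.9 CPM in R2b for E9.75+12h. There 1 of 10 tested was called, lower in R2b, against 20.0% of all genes. For E9.25+24h the sums were 15.9 to 305 and 15.7 to 140 CPM, and all 11 tested had fitted values below 0 (median -0.84). Of these 0 were called by edgeR, against 15.6% of all genes, and 0 had an unadjusted p under 0.05, against 32.2%. With the block 3 were called lower, against 40.6% of all genes. For E10.25+24h the endothelial sums were 24.9 to 80.1 and 34.7 to 69.0 CPM. The 10 blood markers summed to 22.4 to 819 CPM in con and 95.2 to 123 CPM in R2b for E9.75+12h, and to 9.84 to 1659 and 12.8 to 640 CPM for E9.25+24h. All 9 tested had fitted values below 0 in both of these exposures (medians -1.54 and -0.98), with 0 called by edgeR, against 20.0% and 15.6% of all genes. An unadjusted edgeR p under 0.05 was found for 4 and 0 of them, against 35.0% and 32.2% of all genes. With the block 2 blood markers were called lower for E9.25+24h, against 40.6% of all genes. For E10.25+24h the blood sums were 168 to 672 and 263 to 5055 CPM, the highest in the library labelled R2b of litter 3. All 10 markers had fitted values above 0 there (median 1.95). Of these 0 were called, against 0% of all genes, and 2 had an unadjusted edgeR p under 0.05, against 1.15%. The part of these other cells in the members' values was not tested.

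Genes that followed Igfbp3 most closely were sought over the difference between R2b and con in each of 11 litters, among 12806 genes with a mean log2 CPM of at least 1. The 5 with the highest Pearson r were Rhno1 (0.93), Kti12 (0.92), Surf2 (0.91), Gldc (0.90) and Rps19bp1 (0.90). Gldc, which encodes glycine decarboxylase, was called in both exposures ending at E10.25, with log2 fold changes of -0.995 (edgeR FDR 9.14e-04) and -0.93 (FDR 0.00490). Among the members, r with Igfbp3 was -0.90 for Igfbp5, -0.81 for Irs1 and 0.53 for Igf1r, and lay between -0.42 and 0.39 for the others. The litters include litter 1 of E10.25+24h, and no p is attached. The 11 litters were pooled across exposures, so a high r can come from a difference between exposures alone. Igfbp3, Igfbp5 and Irs1 had already been called in the exposures ending at E10.25 and not at E10.25+24h. The r values describe that pattern and do not show that genes vary together between litters of an exposure.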

How the data were processed

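RNA of otocyst epithelium pools was selected with oligo(dT) and made into stranded libraries, per the labels' protocols. The authors deposited a table of unnormalized, whole-number read counts by gene; Novoalign 2.08.03 and the mm10 build are named in the submitters' processing notes, and the counting tool and annotation are not given in the sources used here. Of 24 samples, 22 had a column, and 2 columns that named no sample were not used, so E9.75+12h has 3 litters. Symbols came from GENCODE M21 (GRCm38) for 15522 of 15736 genes. The plan assumed 4 litters in each exposure.

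CPM use TMM (trimmed mean of M-values) library factors, which ran from 0.932 to 1.04. Tests used edgeR 4.0.16 (R 4.3.3): filterByExpr, TMM, glmQLFit and glmQLFTest, fitted on all genes of an exposure, with Benjamini-Hochberg adjustment (FDR under 0.05) and a prior count of 0.125. The SE is the fitted value divided by the root of its F statistic. The code was tested on simulated data. Alternatives were median-of-ratios factors, no filter, a mean CPM of at least 1, DESeq2 1.42.0, all libraries in one fit, robust dispersion, the compared exposures alone, the litter as a block, and each litter or pool left out.

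Pairing by litter comes from the labels, which state that each female gave a con and an R2b pool. The correlation of same-litter deviations from group means ran from -0.31 to -0.17 (E9.75+12h), from 0.52 to 0.83 (E9.25+24h) and from -0.17 to 0.44 (E10.25+24h). At E9.75+12h con and R2b pools of different litters had r of -0.13 to 0.34, so same-litter pools were not the more alike. Pairing there rests on the labels alone, and so do the counts of litters and the blocked fit of that exposure. No library pair was a duplicate (chi-square per degree of freedom 5.84 to 48.3 within groups).

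The members and lists were chosen with earlier results of these data known. Named were all members, Fgfr2 and Ighg1 as the transgene check, up to 6 called pathway genes per exposure with the smallest FDR, and the 5 genes most like the member with the smallest FDR at E9.25+24h. Lum, Dcn and the Igfbp5 to Igfbp3 ratio were chosen after values were seen. Reads carry no molecular identifiers.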

Additional observations from a re-analysis of the deposited data

Results flagged for a closer look

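Igfbp2 in the library labelled R2b of litter 1 at E10.25+24h was at 375.9 CPM, far above the other libraries labelled R2b of that exposure (198 to 220 CPM). It is the litter in which Ighg1 was high in the library labelled con.

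Igfbp5 in R2b of litter 4 at E9.25+24h was at 1167 CPM, below the other R2b pools of that exposure (1604 to 1657 CPM). The con pool of that litter was also the lowest of its group, at 691 CPM, and the mesenchyme markers were highest in this litter.

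These were the 2 of 40 groups of 4 libraries in which the highest or lowest value stood apart by Dixon's criterion, where chance alone gives about 5%.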

How the results depend on the processing

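The 7 calls of members in the exposures ending at E10.25 kept direction in all 149 alternative values and stayed under the threshold in 123 of them; 26 passed above it, most of these with a litter or pool left out. Igfbp5 (E9.75+12h) and Igfbp3 (E9.25+24h) stayed called throughout. Counts of Igf1 ran from 44 to 1917 a library, and what made its pools differ was not tested.

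Of the members, 5 were called at E9.75+12h with all libraries in one fit, and 1 to 5 when a litter or pool was left out. At E9.25+24h the replicate block called 8, against 40.6% of all genes, and leaving out a litter or pool gave 1 to 8. Of the pathway list, the replicate block called 3 (E9.75+12h, against 11.9% of all genes) and 19 (E9.25+24h, against 40.6%). Leaving out a litter or pool gave 0 to 12 and 1 to 10. The share of all genes called moved as well, for instance to 2.15% without litter 1 at E9.25+24h. That share is not given for every setting, so these counts are not read as results about the members or the list. The count for the difference of E9.25+24h minus E9.75+12h was 0 to 1 with a litter left out. The replicate block changed the call of no member other than Igf1, Igf2, Igf1r and Igf2r at E9.25+24h.

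With a litter or pool left out, log2 fold changes that turned sign ranged from -0.43 to 1.41 for Igf1 and -0.16 to 0.12 for Igfbp4 in the E9.75+12h fit, and from -0.30 to 1.85 for Igf1 and -0.34 to 0.26 for Igfbp4 at E9.25+24h. In the last exposure, E10.25+24h, they ranged from -0.28 to 0.56 for Igf1, -0.27 to 0.12 for Igf2, -0.14 to 0.037 for Igf1r, -0.020 to 0.054 for Igf2r, -0.25 to 0.20 for Igfbp2, -0.15 to 0.026 for Igfbp3, -0.11 to 0.13 for Igfbp4 and -0.072 to 0.29 for Igfbp5. Other settings that turned a sign there gave -0.0039 (no filter) and -0.0038 (all libraries in one fit) for Igf1, and -0.022 (replicate block) for Igfbp2. The difference of effects, E9.25+24h minus E9.75+12h, was -0.0065 for Igfbp3 at a mean CPM of at least 1, -0.048 to 0.11 for Igfbp3 and -0.016 to 0.24 for Irs1 with a litter left out. The cause was not tested.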
